A study of Mus musculus with 25 samples.

Results

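The p53 target genes followed here are 35 genes that general knowledge of the pathway names as targets of p53 or as partners in its feedback. They were taken by gene symbol and matched to the versioned Ensembl identifiers of the count files. All 35 had 1 identifier each among the 55385 genes of the files, and 34 of them were among the 15247 genes with enough counts for a test. The remaining member, Trp73, a member of the p53 family, had at most 3 counts in every library. It was at 0 in all libraries of B16F10 luc2, and its highest value was 0.12 CPM (counts relative to the library total, scaled with TMM factors), in RET.

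RNA was sequenced from 25 cultures of untreated murine melanoma cells at a confluency of 50%, 5 biological replicates of each of 5 lines. WT31 came from Tyr::NrasQ61K/°; INK4a-/- mice, in which the tyrosinase promoter drives mutant Nras in pigment cells and the Ink4a locus is lost. B16F10 luc2 carries luciferase, and the study lists many mutations for B16F10, Trp53 among them. RET came from mice with RET under the metallothionein-I promoter, D4M from a mouse melanoma with Tyr::CreER and BrafCA, in which Cre under the tyrosinase promoter acts on Braf, and HCmel12 from a primary melanoma of an HGF-CDK4(R24C) mouse. The study grouped WT31, B16F10 luc2 and RET as HIM-melanoma (high or intermediate efficiency of hepatic metastasis) and D4M and HCmel12 as LM-melanoma (low efficiency). Each genotype is represented by 1 line, so that genotype and line cannot be told apart. The media also differed. B16F10 luc2, WT31 and RET were kept in RPMI, HCmel12 in RPMI with further additives and D4M in Advanced DMEM/F-12 with less serum. A difference of D4M or HCmel12 from the other lines therefore cannot be told apart from a difference in medium. No library with experimentally altered p53 was included. The values are transcript levels of p53 target genes and not a measure of p53 activity.

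A few libraries stood apart within their line. By chi-square per gene, HCmel12 replicate 4 differed from the other HCmel12 libraries by 47.8 to 78.1, and these differed among themselves by 12.8 to 21.9. WT31 replicate 5 differed from the other WT31 libraries by 27.8 to 67.4, and these by 12.3 to 23.6. D4M replicate 1 held 60.6 CPM over 8 melanocyte markers, beside 6.59 to 12.2 CPM in the other D4M libraries. The count of members with HCmel12 below each other line, 13 with all libraries (all genes 6.85%), was 13 without HCmel12 replicate 4 (6.80%). It was 15 without WT31 replicate 5 and 13 without D4M replicate 1, for which shares of all genes are not given here. That of members with D4M above each other line, 11 with all libraries (all genes 20%), was 12 without HCmel12 replicate 4 (20.5%). It was 11 without WT31 replicate 5 and 10 without D4M replicate 1, again with no share of all genes given.

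p53, encoded by Trp53, is a transcription factor that is kept low by the ubiquitin ligase Mdm2 and is stabilized by DNA damage, by nucleolar stress and by the Arf protein, a product of the Cdkn2a locus that binds Mdm2. Stabilized p53 binds a pair of palindromic decamers in DNA and raises genes for cell cycle arrest, apoptosis, DNA repair and metabolism, and also Mdm2 itself, which closes a feedback loop. In melanoma the pathway is more often weakened through Cdkn2a, Mdm2 or Mdm4 than through mutation of the p53 gene.

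The p53 consensus element was looked up in the promoters of the members, since it is the DNA sequence that p53 is known to bind. The RefSeq promoter table (GRCm38.p6, 250 bases before to 50 bases after each start) held 26 of the 35 members. Pmaip1, Perp, Trp53inp1, Tnfrsf10b, Rrm2b, Xpc, Zmat3, Trp53cor1 and Pvt1 had no entry. An element was counted where at least 17 of 20 bases fitted the consensus and the C and G at the core of both decamers were intact. It was searched on the strand of the gene only, since its palindromic form makes the strands equivalent. It was found for 8 of the 26 members (30.8%), and in 1.63% of the 27025 genes of the table or 1.38% of its 32851 promoters. The 8 elements are given with 5 flanking bases on each side, read 5′ to 3′ on the strand of the gene, with the 20 bases of the element in capitals.
Cdkn1a, chr17:29090928-29090947, plus strand: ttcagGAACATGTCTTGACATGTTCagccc
Ccng1, chr11:40755462-40755481, minus strand: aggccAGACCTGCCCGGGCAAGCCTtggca
Rps27l, chr9:66946296-66946315, plus strand: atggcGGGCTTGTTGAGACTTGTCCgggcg
Trp73, chr4:154097220-154097239, minus strand: tctccGGGCAAGCTGAGGCCTGCCCtgagt
Bbc3, chr7:16309486-16309505, plus strand: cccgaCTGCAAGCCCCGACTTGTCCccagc
Aen, chr7:78895937-78895956, plus strand: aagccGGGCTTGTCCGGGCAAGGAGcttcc
Sesn1, chr10:41887266-41887285, plus strand: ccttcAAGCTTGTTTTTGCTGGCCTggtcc
Tigar, chr6:127109746-127109765, minus strand: gcggcGGTCTAGCTCTGGCAAGACTccagg

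The elements of Cdkn1a, Ccng1 and Rps27l had 19 fitting bases, that of Trp73 had 18 and the other 4 had 17. By GENCODE, those of Cdkn1a and Ccng1 lay between genes, those of Bbc3, Rps27l and Sesn1 in an intron of the gene itself, that of Trp73 in an intron and in an exon of Trp73os, that of Tigar in an exon of Platr31, and that of Aen in an untranslated exon. The position of an element is a description and does not show that p53 was bound there in these lines. The 250 bases before the start are given for Cdkn1a and Ccng1, the members with the closest match among those that differed most between HCmel12 and the other lines, again with the element in capitals.
Cdkn1a, chr17:29090729-29090978, plus strand: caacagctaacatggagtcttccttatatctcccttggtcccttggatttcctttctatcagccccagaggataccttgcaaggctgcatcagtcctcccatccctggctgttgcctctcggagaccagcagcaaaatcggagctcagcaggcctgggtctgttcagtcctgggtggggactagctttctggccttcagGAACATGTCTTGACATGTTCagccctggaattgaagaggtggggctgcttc
Ccng1, chr11:40755287-40755536, minus strand: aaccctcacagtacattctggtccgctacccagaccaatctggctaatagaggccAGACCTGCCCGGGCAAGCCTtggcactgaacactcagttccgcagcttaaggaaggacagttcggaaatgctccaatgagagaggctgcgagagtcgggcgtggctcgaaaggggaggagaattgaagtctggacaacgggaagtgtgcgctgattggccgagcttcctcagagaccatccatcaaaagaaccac

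Among the regulators, the level of Trp53 itself differed little between the lines. The 5 libraries held 186, 217, 216, 225 and 185 CPM in WT31 and 187, 182, 201, 207 and 204 CPM in B16F10 luc2. RET held 194, 193, 185, 190.2 and 189.8 CPM, D4M 258, 238, 271, 244 and 241 CPM and HCmel12 236, 246, 247, 184 and 234 CPM. The groups of HCmel12, WT31 and B16F10 luc2 overlapped, and only D4M lay with every library above all those of WT31, B16F10 luc2 and RET. The overlap of HCmel12 rested on replicate 4 (184 CPM), a library apart within its line. The other libraries of HCmel12, at 234 to 247 CPM, lay above every library of WT31, B16F10 luc2 and RET. The largest difference, D4M against RET, was 0.39 on the log2 scale (SE 0.07, adjusted p = 1.3e-05 in limma). A share of 8.79% of the 31-base sequences of Trp53 transcripts also occurred in the pseudogene Trp53-ps, so that some reads could be divided between them. The counts do not show whether the p53 protein of a line was mutated.

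Cdkn2a, which encodes p16Ink4a and Arf, separated the lines far more. It was at 2.66, 3.23, 2.79, 2.65 and 2.81 CPM in WT31, the line with loss of INK4a, and at 0 counts in every library of B16F10 luc2 and RET. D4M held at most 3 counts. In HCmel12 the values were 181, 205, 188, 219 and 221 CPM, above every library of the other lines. The level of HCmel12 was 71.2-fold that of WT31 (log2 6.15, SE 0.12) and, against a floor of 3 counts per library, at least 1740-fold higher than RET and at least 1520-fold higher than D4M. The gene-level count does not separate the transcripts for p16Ink4a and Arf. Of the 20 tested regulators among the 21 listed, 7 were higher in RET than in HCmel12 and 7 lower, beside 34% and 33.3% of all genes tested, 5 were higher in WT31 and 6 lower (36.1% and 34.3%), 3 were higher in B16F10 luc2 and 11 lower (35.3% and 33.8%), and 6 were higher in D4M and 5 lower (36.8% and 35.7%). The median differences from HCmel12 were 0.04 for RET, -0.07 for WT31, -0.23 for B16F10 luc2 and 0.06 for D4M on the log2 scale. Between B16F10 luc2 and D4M, 4 were higher in B16F10 luc2 and 13 in D4M (38.8% and 38.9%). After Cdkn2a, the widest ranges were those of Hipk2, a kinase that phosphorylates p53, with 74.8 CPM in RET and 16.4 CPM in WT31, and of Ppp1r13l (iASPP, an inhibitor of p53), with 30.8 CPM in D4M and between 6.71 and 9.28 CPM elsewhere.

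**Figure D1:**
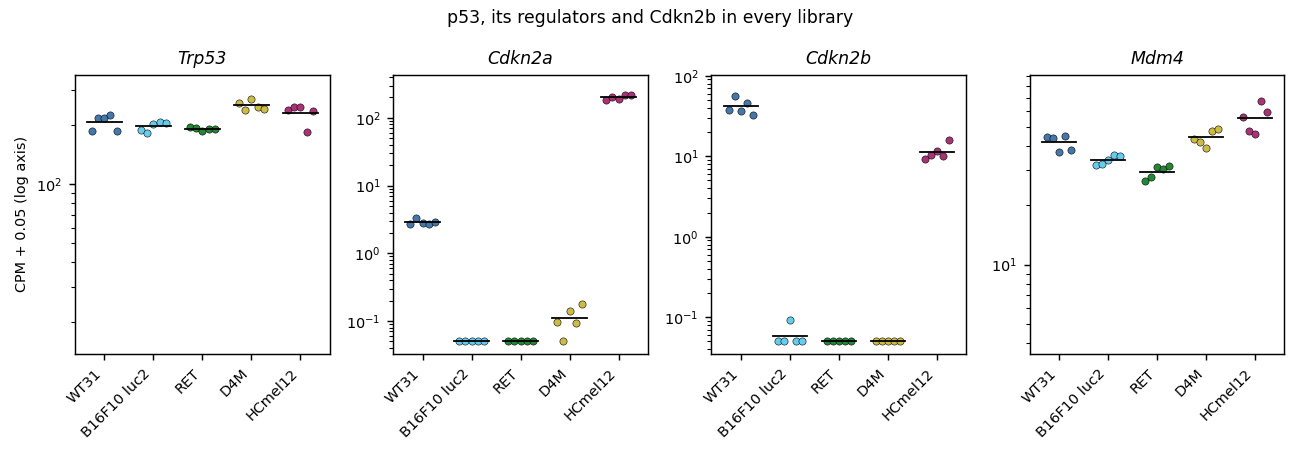
CPM plus 0.05 on log axes for Trp53, Cdkn2a, Cdkn2b and Mdm4, with 1 point per library and a bar at the mean of the 5 libraries of a line. Trp53 stayed between 182 and 271 CPM, while Cdkn2a reached a mean of 203 CPM in HCmel12 and was at or near 0 in B16F10 luc2, RET and D4M.

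Over the p53 target genes as a list, more members were lower than higher in HCmel12 against each of the other lines. All 34 tested members passed the test in at least 1 of the 10 comparisons, as did 98.4% of all genes tested. Of the 34, 19 were lower in HCmel12 than in WT31 and 7 were higher, and the adjusted p of limma was at or above 0.05 for the other 8. Of all genes tested, 36.1% were lower in HCmel12 than in WT31 and 34.3% higher, or 70.4% in either direction. Against B16F10 luc2, 22 members were lower in HCmel12 and 6 higher (all genes 35.3% and 33.8%, or 69.1% in either direction). Against RET, 26 were lower and 6 higher (34% and 33.3%, or 67.2% in either direction), and against D4M, 22 were lower and 8 higher (36.8% and 35.7%, or 72.5% in either direction). The median difference of the members, HCmel12 minus the other line, was -0.33 against WT31, -0.68 against B16F10 luc2, -0.77 against RET and -0.64 against D4M on the log2 scale, or -0.31, -0.64, -0.77 and -0.64 with lines at the floor set to their bounds. The median over all genes lay between -0.01 and 0 in these 4 comparisons. They share the libraries of HCmel12 and are not independent of each other. Adjusted p-values measure the spread between the 5 cultures of a line and not between animals.

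**Figure D2:**
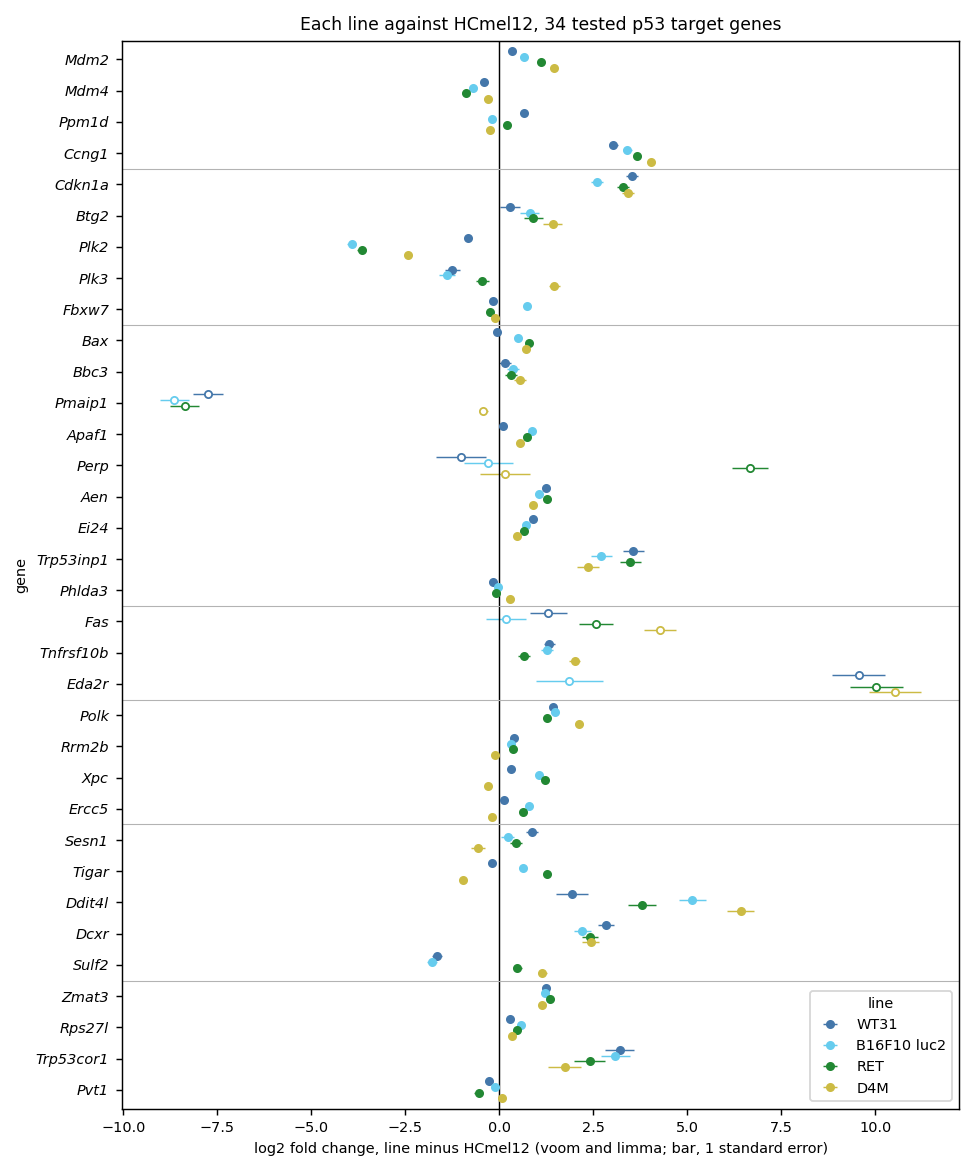
Log2 fold change of each other line minus HCmel12 for the 34 tested members, ordered by role, with 1 point per line and bars of 1 standard error. Open symbols mark genes with at most 3 counts in every library of at least 1 line, for which the fitted value depends on the prior count. Points to the right of 0, such as those of Ccng1 between 3.04 and 4.04, are higher in the other line.

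In 13 of the 34 members, HCmel12 was below each of the other 4 lines (limma, adjusted p under 0.05 in all 4 comparisons). Of all genes tested, 6.85% showed this. The 13 were Mdm2, Ccng1, Cdkn1a, Aen, Ei24, Trp53inp1, Tnfrsf10b, Polk, Ddit4l, Dcxr, Zmat3, Rps27l and Trp53cor1. Where all 4 log2 differences also had to reach 1 in size, 8 of them remained (all genes 1.71%), without Mdm2, Aen, Ei24, Tnfrsf10b and Rps27l. HCmel12 was above each other line in 3 members, Mdm4, Plk2 and Pmaip1, beside 9.56% of all genes.

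The other lines were apart less evenly. D4M was above each of the others in 11 members (all genes 20%), namely Mdm2, Ccng1, Btg2, Plk3, Phlda3, Fas, Tnfrsf10b, Eda2r, Polk, Ddit4l and Sulf2, and below in 4 (all genes 15.7%), Xpc, Ercc5, Sesn1 and Tigar. The count below was 2 at an adjusted p under 0.01 in limma, for which the share of all genes is not given. Scaled by library size alone, 7 members were above in D4M (all genes 15.8%) and 6 below (all genes 22.4%). The median log2 difference over all genes was then 0.22 for WT31 minus D4M, 0.15 for B16F10 luc2 minus D4M, 0.21 for RET minus D4M and -0.17 for D4M minus HCmel12. WT31 was above each other line in 4 members (13.8%), Ppm1d, Ei24, Sesn1 and Dcxr, B16F10 luc2 in 1 (8.81%), Fbxw7, and RET in 3 (7.07%), Perp, Xpc and Tigar. RET was below each other line in 1 (5.06%), Pvt1. The count for B16F10 luc2 above was 2 without WT31 replicate 4 (8.62%), without RET replicate 3 (8.39%) and with only the lines compared in the fit (8.83%). That for RET below was 2 without HCmel12 replicate 4 (5.15%), with a replicate block (5.39%) and with only the lines compared (5.12%). WT31 and B16F10 luc2 were below each other line in 0 members, while 11.1% and 6.83% of all genes tested were. Where each log2 difference had to reach 1 in size, 0 members had D4M below (all genes 6.85%), HCmel12 above (3.97%), WT31 above (4.87%), B16F10 luc2 above (1.73%) or RET below (1.08%), and 1 had RET above (1.36%).

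**Figure D3:**
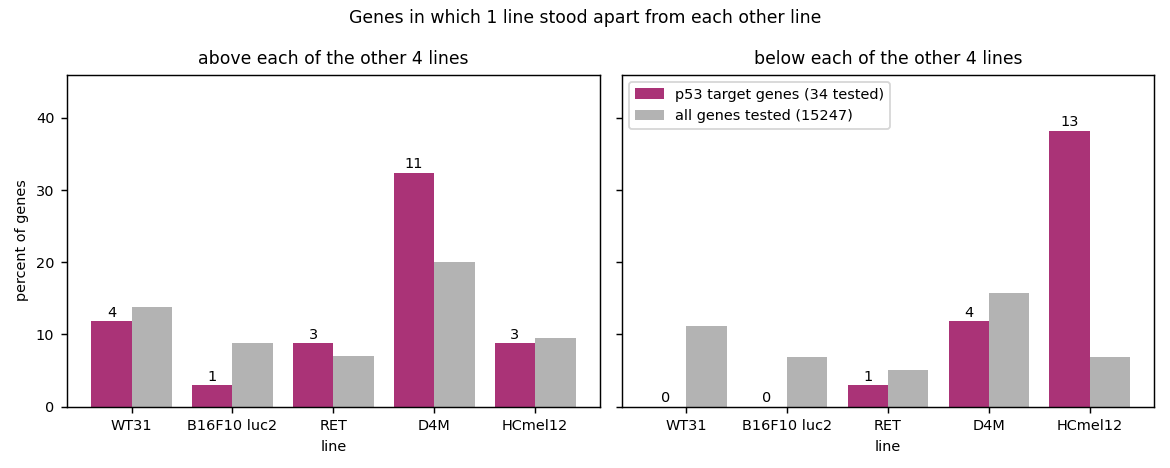
Percent of the 34 tested members and of all 15247 tested genes in which a line was above (left) or below (right) each of the other 4 lines with an adjusted p under 0.05 in limma, with the number of members on the bars. HCmel12 was below in 13 members, 38.2% beside 6.85% of all genes.

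In either direction, called between the other lines were 21 members between WT31 and B16F10 luc2 (61.8%, all genes 72.8%), 23 between WT31 and RET (67.6%, all genes 73.2%) and 20 between B16F10 luc2 and RET (58.8%, all genes 51.5%). Of these 20, 6 were higher in B16F10 luc2 and 14 in RET (17.6% and 41.2% of the tested members, all genes 25.2% and 26.2%). With library size alone these were 5 and 14, and the median over all genes was then -0.05 for B16F10 luc2 minus RET on the log2 scale. Between WT31 and RET, 9 were higher in WT31 and 14 in RET (all genes 36.8% and 36.4%), and between WT31 and B16F10 luc2, 11 in WT31 and 10 in B16F10 luc2 (36.4% each). D4M differed from WT31 in 28 members (82.4%, all genes 76.1%), from B16F10 luc2 in 26 (76.5%, all genes 77.7%) and from RET in 27 (79.4%, all genes 77.1%). In these 6 comparisons the median difference of the members lay between -0.22 (WT31 or B16F10 luc2 minus D4M) and 0.04 (WT31 minus B16F10 luc2) on the log2 scale. With lines at the floor set to their bounds, the latter was -0.08, the median of WT31 minus D4M was -0.15 and that of B16F10 luc2 minus D4M was -0.20. Between WT31 and D4M, 12 members were higher in WT31 and 16 in D4M with TMM factors (all genes 37.5% and 38.6%). With library size alone these were 14 and 13, and the median over all genes was then 0.22 for WT31 minus D4M on the log2 scale. The balance of directions against D4M moved with the scaling. With TMM factors 10 members were higher in B16F10 luc2 and 16 in D4M (all genes 38.8% and 38.9%). With library size alone these were 14 and 13, and the median over all genes was then 0.15 for B16F10 luc2 minus D4M on the log2 scale. Between RET and D4M, 12 were higher in RET and 15 in D4M with TMM factors (all genes 38.8% and 38.3%). With library size alone these were 15 and 11, and the median over all genes was 0.21 for RET minus D4M. This scaling moved all genes, so that the change of balance is not a result about the members.

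Among the feedback genes, the order of the lines was clearest for Mdm2 and Ccng1. Mdm2, the ligase that marks p53 for degradation, lies at chr10:117688875-117710758 on the minus strand. Its 5 libraries held 99.7, 106, 105, 106 and 93.9 CPM in WT31 and 126, 127, 119.9, 125 and 134 CPM in B16F10 luc2. RET held 155, 179, 196, 165 and 179 CPM, D4M 219, 283, 243, 204 and 173 CPM and HCmel12 76, 86.6, 86.9, 70.4 and 85.2 CPM. The highest library of HCmel12 was below the lowest of WT31, and D4M and RET overlapped, while neighbours among the other lines did not. D4M, the highest line, was 2.74-fold HCmel12 (log2 1.45, SE 0.09, adjusted p = 1.1e-13 in limma), and WT31 was 1.26-fold HCmel12 (log2 0.34, SE 0.09, adjusted p = 0.0022). The call of D4M above RET was lost with library size alone (log2 0.14, adjusted p = 0.15) and with both TPM settings (log2 0.09 in each, adjusted p = 0.53 and 0.52), where D4M replicate 1 had no TPM value in use and so was also left out.

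Ccng1, cyclin G1, a p53 target that takes part in the feedback through Mdm2, had the largest deficit in HCmel12 among the feedback genes. It lies at chr11:40748552-40755311 on the minus strand, and its promoter holds one of the elements shown above. WT31 held 345, 274, 263, 322 and 188 CPM, B16F10 luc2 365, 351, 350.3, 355 and 337 CPM and RET 389.8, 425, 450, 408 and 433 CPM. D4M held 557, 516, 568, 518 and 568 CPM and HCmel12 33.8, 31, 33.8, 35.2 and 31.8 CPM. The 5 libraries of HCmel12 lay within 31 to 35.2 CPM, far below every other library, and replicate 5 was the lowest of WT31. The other lines exceeded HCmel12 by 8.24-fold (WT31), 10.6-fold (B16F10 luc2), 12.7-fold (RET) and 16.5-fold (D4M), with an SE of 0.11 on the log2 scale in each. All 4 neighbours in the order D4M, RET, B16F10 luc2, WT31 and HCmel12 differed, but D4M against RET was not called with library size alone (log2 0.17, adjusted p = 0.11).

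Mdm4, the relative of Mdm2 that blocks transactivation by p53, was instead highest in HCmel12 with 55.2 ± 8.83 CPM (SD, n = 5) and lowest in RET with 29.5 ± 2.17 CPM, a difference of 0.89 on the log2 scale (SE 0.09, adjusted p = 2.4e-09 in limma). The smallest difference of HCmel12 was that from D4M, 0.31 (SE 0.09, adjusted p = 0.0023), and the libraries of these lines overlapped. Its difference from WT31 was not called with log2(TPM + 1) (log2 0.25, adjusted p = 0.052) or log2(TPM + 0.1) (log2 0.27, adjusted p = 0.055). A share of 13.1% of its 31-base sequences was shared with the pseudogene Mdm4-ps. Ppm1d, the phosphatase Wip1 that reverses damage signalling to p53, was highest in WT31 (45.5 ± 1.23 CPM). Its lowest means were those of D4M (24.2 ± 1.7 CPM) and B16F10 luc2 (24.95 CPM), which were not apart (adjusted p = 0.5 in limma).

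Of the arrest genes, Cdkn1a showed the largest deficit of HCmel12. It encodes p21, the inhibitor of cyclin-dependent kinases through which p53 halts the cycle, and lies at chr17:29090976-29100727 on the plus strand. WT31 held 405, 369.7, 351, 412 and 263 CPM, B16F10 luc2 187, 182, 189.7, 178 and 201 CPM and RET 298, 325, 329, 284 and 292 CPM. D4M held 361, 394, 400.4, 279.8 and 256 CPM and HCmel12 17.6, 31.6, 38, 34.3 and 40 CPM. The libraries of WT31, RET and D4M overlapped, those of B16F10 luc2 lay below them, and the highest library of HCmel12 was still far below the lowest of B16F10 luc2. WT31 exceeded HCmel12 by 3.52 on the log2 scale (11.5-fold, SE 0.16, adjusted p = 3.3e-16 in limma) and B16F10 luc2 by 2.59 (6.03-fold, SE 0.16). Without HCmel12 replicate 1, its lowest library, these values were 3.31 and 2.39. The orders of WT31, D4M and RET were not resolved, with adjusted p = 0.55 between WT31 and D4M and adjusted p = 0.44 between D4M and RET. By level per transcript length, Cdkn1a stood at 323 TPM (transcript abundance relative to all transcripts) in WT31 and 25.6 TPM in HCmel12, and Mdm2 at 69.3 and 46.3 TPM. A share of 6.88% of the 31-base sequences of Cdkn1a was shared with AC167363.2.

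Plk2, a polo-like kinase induced by p53 that acts in the damage checkpoint, ran the other way. WT31 held 84.3, 108, 87.3, 107 and 84.5 CPM, B16F10 luc2 11.4, 10.2, 7.96, 12 and 13.6 CPM and RET 11.4, 12.1, 17.4, 12.7 and 13 CPM. D4M held 31.5, 30.9, 32.6, 29.5 and 29.9 CPM and HCmel12 183, 195, 163, 155 and 144 CPM. HCmel12 lay above WT31, WT31 above D4M, and D4M above RET and B16F10 luc2, with an overlap only between the last pair (adjusted p = 0.14). HCmel12 was 15.3-fold B16F10 luc2 (log2 3.93, SE 0.13) and 1.78-fold WT31 (log2 0.83, SE 0.09). Plk3, its relative, was highest in D4M with 48.5 ± 6.75 CPM, followed by HCmel12 with 17.7 ± 3.78 CPM and by 6.87 to 12.9 CPM in the lines of HIM-melanoma. Btg2, an antiproliferative gene, stayed low, from 3.1 CPM in HCmel12 to 8.1 CPM in D4M. Fbxw7, which encodes a substrate receptor for the degradation of cyclin E and Myc, was highest in B16F10 luc2 (24.7 ± 1.75 CPM) and lay between 12.5 and 14.9 CPM elsewhere. Of these 5 arrest and growth genes, 3 were higher in B16F10 luc2 than in HCmel12 and 2 lower (all genes 35.3% and 33.8%), 2 were higher in RET and 3 lower (34% and 33.3%), 1 was higher in WT31 and 2 lower (36.1% and 34.3%), and 3 were higher in D4M and 1 lower (36.8% and 35.7%).

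The calls of Btg2 in D4M depended on the scaling and on single libraries. Its log2 difference of 0.50 (adjusted p = 0.034 in limma) missed the threshold without RET replicate 1 (0.48, adjusted p = 0.062), RET replicate 4 (0.39, adjusted p = 0.11), D4M replicate 1 (0.48, adjusted p = 0.06) or D4M replicate 2 (0.43, adjusted p = 0.084). It also missed it with library size alone (0.30, adjusted p = 0.19), with log2(TPM + 1) (0.27, adjusted p = 0.21), with log2(TPM + 0.1) (0.34, adjusted p = 0.25) and without a filter (0.50, adjusted p = 0.069). Btg2 in D4M against B16F10 luc2 missed it without B16F10 luc2 replicate 1 (0.44, adjusted p = 0.056), with library size alone (0.46, adjusted p = 0.058) and with both TPM settings (0.34 and 0.43, adjusted p = 0.11 and 0.14). Plk3 in HCmel12 against RET (0.45, adjusted p = 0.028) missed it without RET replicate 1, 4 or 5 (0.4, 0.36 and 0.42, adjusted p = 0.068, 0.091 and 0.06) and without HCmel12 replicate 3 or 5 (0.36 and 0.38, adjusted p = 0.089 and 0.078). It also missed it without a filter (0.45, adjusted p = 0.071) and with both TPM settings (0.38 and 0.42, adjusted p = 0.072 and 0.082).

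Among the 9 genes of cell death, 6 were higher in RET than in HCmel12 and 1 was lower (all genes 34% and 33.3%), 7 were higher in D4M and 1 lower (36.8% and 35.7%), 6 were higher in B16F10 luc2 and 1 lower (35.3% and 33.8%), and 3 were higher in WT31 and 1 lower (36.1% and 34.3%). Trp53inp1, which binds p53 in stress and acts in autophagy and apoptosis, was lower in HCmel12 than in each other line. WT31 held 66.3, 52.2, 55.3, 57.8 and 62.5 CPM, B16F10 luc2 37.9, 28.4, 28, 30.3 and 38.9 CPM and RET 58.8, 67.3, 43.3, 52.6 and 57.9 CPM. D4M held 23.2, 31.1, 26.5, 23.6 and 23.7 CPM and HCmel12 6.26, 3.43, 1.91, 15.9 and 4.56 CPM. HCmel12 replicate 4 was the highest of its line, yet every library of HCmel12 was below every library of the other lines. WT31 exceeded HCmel12 by 3.56 on the log2 scale (SE 0.28, adjusted p = 1.2e-11 in limma), or 3.98 without replicate 4, and D4M by 2.36 (SE 0.29), or 2.78 without it.

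Pmaip1, which encodes the BH3-only protein Noxa, passed the floor of 3 counts in D4M and HCmel12 and in no library of the other lines. D4M held 6.38, 4.93, 5.12, 5.42 and 8.6 CPM and HCmel12 8.75, 7.09, 7.75, 7.99 and 8.62 CPM. In WT31, B16F10 luc2 and RET the highest library held about 1 count, and B16F10 luc2 had 0 in all 5. The libraries of D4M and HCmel12 overlapped, and HCmel12 exceeded D4M by 0.42 on the log2 scale (SE 0.13, adjusted p = 0.004 in limma). Against the floor of 3 counts, D4M was at least 50.2-fold and HCmel12 at least 66.3-fold higher than B16F10 luc2.

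Perp, a membrane protein that p53 and p63 induce, passed the floor in RET, with 5.34, 2.82, 2.88, 5.28 and 3.94 CPM. The other lines held between 0 and 2 counts per library, so that RET was at least 30.4-fold to 35.5-fold higher. The other proapoptotic members were more even. Bax, which permeabilizes the mitochondrial membrane, lay between 111 CPM in WT31 and 199 CPM in RET, with HCmel12 (115 ± 11.4 CPM) and WT31 (111 ± 9.48 CPM) not apart (adjusted p = 0.59). Bbc3, which encodes Puma, kept within 4.8 and 6.9 CPM, and none of the neighbours in its order differed. Between lines further apart in the order, D4M was called above WT31 and HCmel12, and B16F10 luc2 above HCmel12. Apaf1, the scaffold of the apoptosome, was highest in B16F10 luc2 (54.4 ± 2.59 CPM) and lowest in HCmel12 (29.6 ± 3.87 CPM) and WT31 (31.7 ± 3.78 CPM).

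Aen and Ei24 were each lowest in HCmel12. Aen, a nuclease of apoptotic cells, was at 44.6 ± 7.24 CPM in HCmel12 and between 82.2 and 107 CPM elsewhere, and the difference of D4M from HCmel12, the smallest, was 0.90 on the log2 scale (SE 0.09, adjusted p = 8.0e-10 in limma). Ei24, a membrane protein of the endoplasmic reticulum, fell from 191 ± 10.8 CPM in WT31 to 141 ± 7.12 CPM in D4M and 102 ± 4.23 CPM in HCmel12. Phlda3, a repressor of Akt, differed least of all members, with means from 82.7 CPM in WT31 to 112 CPM in D4M. Its calls in D4M depended on the scaling, since with library size alone no difference of D4M passed the threshold (log2 0.1 to 0.21, adjusted p = 0.063 to 0.37), nor did any with log2(TPM + 1) or log2(TPM + 0.1) (0.17 to 0.23, adjusted p = 0.066 to 0.19). Phlda3 in D4M against HCmel12 also missed it without D4M replicate 3 (0.23, adjusted p = 0.053), HCmel12 replicate 1 (0.23, adjusted p = 0.059) or HCmel12 replicate 2 (0.24, adjusted p = 0.05).

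By mean, the 3 death receptors were highest in D4M. Tnfrsf10b was lowest in HCmel12, while Fas and Eda2r were at or under the floor in both HCmel12 and B16F10 luc2. Eda2r, a receptor of the TNF family for ectodysplasin A2 at chrX:97333840-97377216 on the minus strand, had the widest range of all members. WT31 held 29.2, 19.7, 22.1, 26.7 and 12.3 CPM, RET 26.9, 29.1, 30.3, 30.3 and 28.4 CPM and D4M 38.3, 47.2, 36.4, 43.2 and 41.8 CPM. B16F10 luc2 had 2 counts in each library, and HCmel12 had 0 in replicates 1 to 4 and 2 in replicate 5. The gene was thus present in 3 lines and at or under the floor in B16F10 luc2 and HCmel12, with no overlap. Relative to HCmel12, WT31 was at least 182-fold, RET at least 240-fold and D4M at least 342-fold higher. D4M against RET was not called with log2(TPM + 0.1) (log2 0.49, adjusted p = 0.066). None of its 31-base sequences occurred in transcripts of other genes. WT31 replicate 5 was the lowest of its line for Eda2r, as it was for Ccng1 and Cdkn1a.

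Tnfrsf10b, the mouse TRAIL receptor, reached 30.4 ± 5.3 CPM in D4M against 7.48 ± 1.08 CPM for HCmel12, 4.03-fold (log2 2.01, SE 0.15, adjusted p = 2.4e-12 in limma). The line closest to HCmel12 was RET with 11.8 ± 1.04 CPM (log2 0.66, SE 0.16, adjusted p = 7.6e-04). Fas, the receptor of Fas ligand, was very low in every line. D4M held 0.873, 1.16, 1.02, 0.889 and 0.682 CPM, which corresponds to 16 to 26 counts, and B16F10 luc2 and HCmel12 had at most 2 counts per library. D4M was at least 7.64-fold higher than HCmel12.

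DNA repair genes split by line. Polk, a polymerase that copies past damaged bases, lies at chr13:96480690-96542579 on the minus strand. WT31 held 25.9, 21.5, 23.7, 20 and 23.9 CPM, B16F10 luc2 23.2, 22.6, 24.4, 23.9 and 26.5 CPM and RET 20.3, 20.1, 21.6, 21.3 and 19.3 CPM. D4M held 34.5, 45, 37.7, 35.2 and 35.3 CPM and HCmel12 9.33, 7.39, 7.84, 10.5 and 8.18 CPM. D4M lay above and HCmel12 below all other libraries, while WT31 overlapped with B16F10 luc2 and with RET. D4M was 4.35-fold HCmel12 (log2 2.12, SE 0.10, adjusted p = 1.9e-16 in limma) and RET, the next lowest, 2.39-fold (log2 1.26, SE 0.10).

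Xpc, which recognizes bulky lesions, was 35.6 ± 1.6 CPM in RET and 31.8 ± 0.648 CPM in B16F10 luc2, while HCmel12 had 15.2 ± 0.997 CPM and D4M 12.3 ± 0.856 CPM. Its small difference between RET and B16F10 luc2 (0.16, adjusted p = 0.016 in limma) was not called without RET replicate 4 (0.14, adjusted p = 0.051), with log2(TPM + 1) (0.15, adjusted p = 0.087) or with log2(TPM + 0.1) (0.16, adjusted p = 0.1). Ercc5, the nuclease that cuts 3′ of the lesion, was likewise highest in B16F10 luc2 and RET, and ranged from 37.6 ± 1.74 CPM in B16F10 luc2 to 19.4 ± 1.6 CPM in D4M. The difference of HCmel12 from D4M in Ercc5 (0.18, adjusted p = 0.036) was small, and 8 single libraries each ended the call when left out, with adjusted p = 0.05 to 0.14 and log2 values of 0.13 to 0.18. They were D4M replicates 1, 4 and 5, HCmel12 replicates 1, 2 and 4, B16F10 luc2 replicate 4 and RET replicate 5. The call was also lost without a filter (0.18, adjusted p = 0.054) and with both TPM settings (0.12 and 0.14, adjusted p = 0.3 and 0.28). Rrm2b, the p53-inducible subunit of ribonucleotide reductase, was between 22 and 23.7 CPM in HIM-melanoma, while HCmel12 had 17.9 CPM and D4M 16.7 CPM.

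In the group of metabolism, stress and surface genes, all 5 were higher in RET than in HCmel12 (all genes 34%), 3 were higher and 2 lower in WT31 (36.1% and 34.3%), 3 were higher and 2 lower in D4M (36.8% and 35.7%), and 3 were higher and 1 lower in B16F10 luc2 (35.3% and 33.8%). Ddit4l, an inhibitor of mTORC1 signalling, ranged over the widest span of the group. WT31 held 0.418, 0.114, 0.582, 0.693 and 0.591 CPM, B16F10 luc2 4.09, 3.98, 3.46, 4.5 and 3.92 CPM and RET 1.86, 1.67, 1.46, 1.44 and 1.39 CPM. D4M held 10.4, 11.1, 10.3, 7.96 and 9.08 CPM and HCmel12 0.161, 0.0798, 0.0812, 0.0808 and 0.0814 CPM. The lines did not overlap except for WT31 replicate 2, which was within the range of HCmel12, where every library had 2 to 4 counts. D4M exceeded HCmel12 by 6.42 on the log2 scale (SE 0.35, adjusted p = 4.7e-15 in limma). Dcxr, a reductase of carbonyl compounds and xylulose, was at 1.61, 2.27, 2.55, 3.64 and 1.99 CPM in HCmel12 and between 11 and 16.8 CPM on average elsewhere. Every library of HCmel12 was below all others, and B16F10 luc2, the nearest line, was 4.62-fold higher (log2 2.21, SE 0.22).

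Tigar and Sulf2 divided the lines in other ways. Tigar, which lowers glycolytic flux through fructose-2,6-bisphosphate, was 74.7 ± 2.64 CPM in RET, 47.6 ± 3.34 CPM in B16F10 luc2, 30.8 ± 2.28 CPM in HCmel12, 27 ± 3.12 CPM in WT31 and 15.7 ± 1.5 CPM in D4M, and all neighbours in this order differed. Sulf2, a sulfatase that trims heparan sulfate at the cell surface, was 371 ± 35.1 CPM in D4M, 233 ± 13.5 CPM in RET and 167 ± 7.28 CPM in HCmel12. WT31 (55.6 ± 18.6 CPM) and B16F10 luc2 (48.8 ± 2.85 CPM) were lower and not apart (adjusted p = 0.4 in limma). Sesn1, a sestrin that restrains mTORC1, was highest in WT31 (22.6 ± 1.24 CPM) and lowest in D4M (8.6 ± 1.52 CPM).

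The RNA-binding, ribosomal and non-coding members held 3 of the 13 genes called below each other line in HCmel12. Zmat3, an RNA-binding regulator of splicing, was at 28.6, 33.1, 31.9, 32.1 and 29.5 CPM in HCmel12, while the means of the other lines lay between 69.2 and 80.1 CPM. None of their neighbours in the order differed, but RET was called above D4M. D4M, the nearest, was 2.21-fold HCmel12 (log2 1.15, SE 0.10, adjusted p = 7.2e-11 in limma). Rps27l, the p53-inducible relative of the ribosomal protein gene Rps27, fell to 79.2 ± 7.97 CPM in HCmel12 from 97 to 118 CPM elsewhere. Its paralog Rps27 was instead highest in HCmel12 (359 ± 44.3 CPM) and lowest in WT31 (200.1 ± 29.3 CPM). Of the 31-base sequences of Rps27, 27.4% also occurred in Rps27rt, and of those of Rps27l 16.1% occurred in other genes, so that their reads could be divided. The effect on the levels was not tested. Rps27l against D4M was not called with library size alone (log2 0.17, adjusted p = 0.066). By level per transcript length Rps27l was the most abundant member, with 341 TPM in HCmel12 and 524 TPM in B16F10 luc2.

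Trp53cor1 (lincRNA-p21), a non-coding RNA at chr17:29057430-29079179 on the minus strand, upstream of Cdkn1a, showed a library apart. WT31 held 6.48, 5.37, 7.34, 6.62 and 6.03 CPM, B16F10 luc2 7.7, 5.29, 5.98, 5.73 and 4.89 CPM and RET 3.54, 3.87, 3.3, 4.34 and 3.31 CPM. D4M held 1.73, 2.64, 2.8, 2.54 and 1.89 CPM and HCmel12 0.281, 0.72, 0.227, 5.07 and 0.539 CPM. HCmel12 replicate 4 was above all libraries of D4M and RET, and the other 4 libraries of HCmel12 were below every library of the other lines. The same library had the highest Trp53inp1 of its line and 30.1 CPM of the pigment gene Tyr, where the other libraries of HCmel12 had at most 9.14. WT31 exceeded HCmel12 by 3.20 (SE 0.39, adjusted p = 5.6e-08 in limma) with replicate 4 and by 3.92 without it, and D4M by 1.74 (SE 0.43, adjusted p = 8.6e-04) with it and 2.46 without it. edgeR's quasi-likelihood test did not call D4M against HCmel12 with all libraries (log2 0.75, adjusted p = 0.15). With the DESeq2 Wald test, too, Trp53cor1 was not among the members with HCmel12 below each other line. Trp53cor1 shared 40.7% of its 31-base sequences with AC167363.1, so that its reads could be divided between these genes. Pvt1, a non-coding neighbour of Myc, varied from 9.18 ± 1.44 CPM in RET to 14.1 ± 1.05 CPM in D4M, and its difference between WT31 and RET (0.27, adjusted p = 0.043) lost its call without WT31 replicate 2, 3, 4 or 5 or RET replicate 1, 2 or 4 (log2 0.22 to 0.28, adjusted p = 0.053 to 0.12) and without a filter (0.27, adjusted p = 0.082), so that no member then had RET below each other line.

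**Figure D4:**
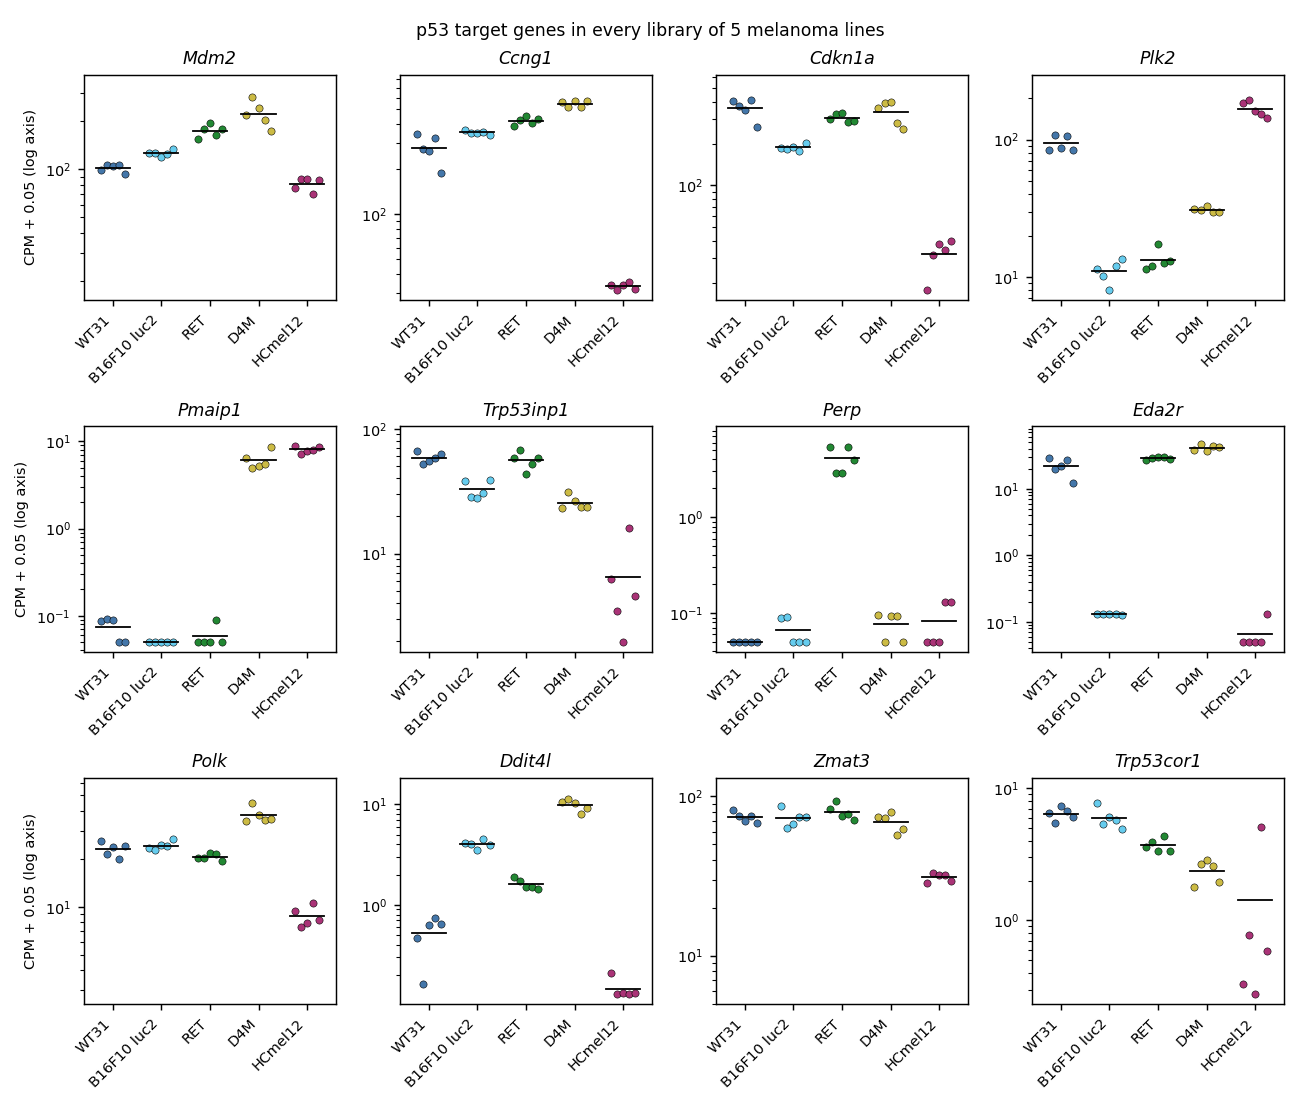
CPM plus 0.05 on log axes for 12 p53 target genes, with 1 point per library and a bar at the mean of the 5 libraries of a line. All libraries of HCmel12 lie below those of the other lines for Mdm2, Ccng1, Cdkn1a, Trp53inp1, Polk and Zmat3, with replicate 4 apart from the others for Trp53cor1 at 5.07 CPM.

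**Figure D5:**
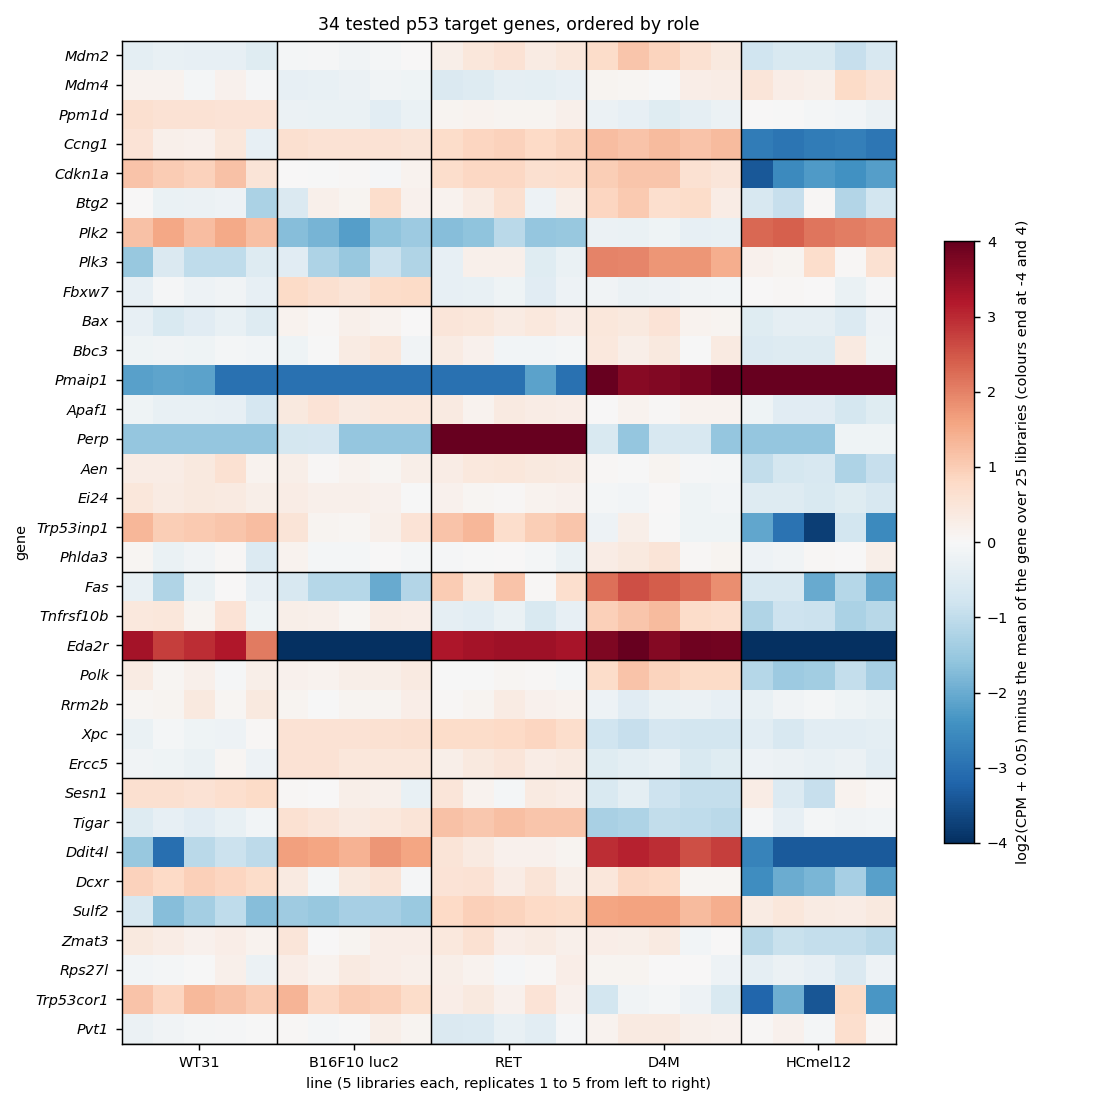
Log2(CPM + 0.05) minus the mean of each gene over 25 libraries for the 34 tested members, in rows by role and with 5 libraries per line. The colours end at -4 and 4. Pmaip1 is high in D4M and HCmel12, Perp in RET and Eda2r in WT31, RET and D4M.

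Between HIM-melanoma and LM-melanoma some members were commonly regulated, at a share near that of all genes. This means called with the same sign in all 6 comparisons of WT31, B16F10 luc2 and RET with D4M and HCmel12. There were 5, or 14.7% of the tested members, beside 12.9% of all genes tested. Ei24, Rrm2b and Xpc were higher in HIM-melanoma (all genes 6.53%), and Plk3 and Pmaip1 were higher in LM-melanoma (all genes 6.4%). The 6 differences, HIM minus LM, lay between 0.20 and 0.90 for Ei24, between 0.30 and 0.50 for Rrm2b and between 0.32 and 1.53 for Xpc on the log2 scale. For Plk3 they lay between -2.85 and -0.45. The count was 10 with library size alone (all genes 13.3%), 7 without HCmel12 replicate 4 (all genes 13.3%) and 1 where each log2 difference had to reach 1 in size (all genes 4.13%). By mean, D4M was highest in 13 of the 34 tested members (38.2%, all genes 27.4%) and HCmel12 lowest in 18 (52.9%, all genes 16.3%), which counts Fas and Eda2r, where B16F10 luc2 was also at or under the floor. Both held for Mdm2, Ccng1, Btg2, Tnfrsf10b, Polk, Ddit4l, Fas, Eda2r and Bbc3, but HCmel12 was not resolved from the next line in Btg2, Fas, Eda2r and Bbc3 (adjusted p = 0.35, 0.79, 0.067 and 0.42 in limma).

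Among targets of p53 outside the 35 members, higher and lower genes were nearer to each other in number. Of the 35 tested among 36 further targets listed, 13 were higher in WT31 than in HCmel12 and 12 lower (all genes 36.1% and 34.3%), 15 were higher in B16F10 luc2 and 16 lower (35.3% and 33.8%), 17 were higher in RET and 11 lower (34% and 33.3%), and 16 were higher in D4M and 13 lower (36.8% and 35.7%). The widest ranges were those of Kitl, Casp1 and Gdf15. Kitl, the ligand of Kit, was 137 ± 6.13 CPM in D4M, 32.7 ± 3.35 CPM in HCmel12 and 0.32 ± 0.0942 CPM in WT31. Casp1, the inflammatory caspase, was 35 ± 7.95 CPM in HCmel12, above each other line, and had at most 4 counts per library in B16F10 luc2 and RET. Gdf15, a stress-induced cytokine, was 24.6 ± 12.7 CPM in HCmel12, not apart from WT31 (26.9 ± 7.79 CPM, adjusted p = 0.41 in limma), and had at most 6 counts per library in B16F10 luc2. The difference between the members and these further genes was not tested.

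Of the 6 other inhibitors of cyclin-dependent kinases listed, 4 were higher in HCmel12 than in RET and 1 was lower (all genes 33.3% and 34%), 4 were higher than in D4M and 1 was lower (35.7% and 36.8%), 2 were higher and 2 lower than in WT31 (34.3% and 36.1%), and 2 were higher and 2 lower than in B16F10 luc2 (33.8% and 35.3%). Cdkn2b, which encodes p15Ink4b, was 41.9 ± 9.22 CPM in WT31 and 11.4 ± 2.73 CPM in HCmel12, and at most 1 count per library was found in the other lines. Cdkn1c, which encodes p57, was highest in B16F10 luc2 (3.46 ± 0.912 CPM) and at most 2 counts in RET. In the Bcl2 family, 10 of 15 listed genes were tested, and 4 were higher in HCmel12 than in D4M while 6 were lower (all genes 35.7% and 36.8%). Against WT31, 2 were higher in HCmel12 and 7 lower (34.3% and 36.1%), against B16F10 luc2 4 and 4 (33.8% and 35.3%), and against RET 5 and 2 (33.3% and 34%). The widest ranges were those of Bok, a proapoptotic relative of Bax that was at 33.7 ± 5.89 CPM in D4M and between 0.504 and 1.61 CPM elsewhere, of Bmf, a BH3-only gene for which HCmel12 had 8.87 ± 3.58 CPM and D4M 0.494 ± 0.208 CPM, and of Bid, a BH3-only link to the death receptors that was higher in HCmel12 than in each other line, by 0.36 (RET) to 2.36 (D4M) on the log2 scale.

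Library totals lay between 24199083 and 25843286 counts, so that depth did not separate the lines, and a floor of 3 counts per library covers counting error only. The correlation of log2 CPM over tested genes was at least 0.9873 between replicates of a line and at most 0.9682 between lines. In 8 melanocyte markers the summed level was 15470 to 31360 CPM in WT31, B16F10 luc2 and RET and 12290 to 18150 CPM in HCmel12, but 6.59 to 12.2 CPM in D4M replicates 2 to 5 and 60.6 CPM in D4M replicate 1, in which Sox10 was at 2.07 CPM. The 5 fibroblast markers summed to 451 to 674 CPM in D4M and to at most 88.6 CPM elsewhere. The sum in D4M came from Col1a2, Col1a1 and Pdgfra, while Dcn held 4 to 12 counts per library there and Lum 0. The 88.6 CPM was that of RET replicate 3, mostly from Col1a1 (2055 counts). The 4 endothelial markers summed to 25.4 to 39.1 CPM in HCmel12, where Kdr held 31 ± 5.71 CPM, and to at most 2.03 CPM elsewhere, and leukocyte markers summed to at most 15.9 CPM with Ptprc, Cd3e and Adgre1 at no more than 3 counts per library. Krt5 and Krt14 were likewise at no more than 3 counts, and the 3 keratinocyte markers summed to at most 2.98 CPM. These markers move with the line, and their part in the differences of D4M was not tested. In cultures, fewer cells of a kind and less RNA per cell cannot be told apart.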

How the data were processed

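RNA of 25 cultures was sequenced, and per the submitters' processing notes the authors trimmed reads with Trim Galore 0.6.4 and quantified transcripts with kallisto against GRCm38.p6. The deposited files hold estimated counts per gene, which need not be whole and were rounded for DESeq2 and edgeR, and TPM, a transcript abundance scaled for length and depth, which the authors computed from the same quantification and which was used for 24 libraries, without D4M replicate 1, so that the TPM alternatives also leave out this library. Of the 55385 identifiers, 54487 were matched with their version to a symbol, and every member was found.

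The main test was limma 3.58.1 with voom in R 4.3.3 on the estimated counts. It used the filterByExpr filter and TMM factors of edgeR 4.0.16, 1 mean per line over all 25 libraries and 10 comparisons, with Benjamini-Hochberg adjustment over all 15247 tested genes at 0.05. Printed CPM values are scaled with TMM factors. Fold changes against lines with at most 3 counts in every library are bounds against 3 counts. The test was run on simulated data for HCmel12 against WT31 with 14666 genes, where 194 of 200 genes changed by 1 on the log2 scale were recovered and 15 others were called. Apart from these 200, raised and lowered in equal number, the simulated lines shared the same mean for each gene. In the data, 70.4% of all genes were called between these lines. The simulation therefore cannot show how the scaling performs where most genes differ. Alternatives were library size alone, DESeq2 1.42.0 size factors and its Wald test, the quasi-likelihood test of edgeR, other filters, only the lines compared, TPM with pseudocounts of 1 and 0.1, a replicate block, stricter thresholds and each library left out.

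The members and lists were chosen with earlier results of these data known. Values in every library are printed for Cdkn1a, Mdm2 and Ccng1 and for the widest-ranging members of each role. The other members are given by means. Beyond the members, Trp53, Cdkn2a, Rps27 and the 3 widest-ranging genes of each further list are named. Library values of Trp53inp1, Perp, Fas, Dcxr and Zmat3, and the values of Tyr, Sox10 and Kdr, were added after their values were seen. Promoter sequences are from RefSeq (GRCm38.p6) and gene positions from GENCODE. Some genotype details of the lines are not reported here.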

Additional observations from a re-analysis of the deposited data

Results flagged for a closer look

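Of 160 groups of 5 libraries examined among the members, 5 held a library whose gap to its nearest neighbour exceeded 0.71 of the range of the group. Chance alone sets such a library apart in about 5% of groups. Trp53cor1 was at 5.07 CPM in HCmel12 replicate 4, and the next library of HCmel12 was at 0.72 CPM. Ddit4l was at 0.161 CPM in HCmel12 replicate 1 and 0.0814 CPM in the next, a difference of 2 counts. Xpc was at 13.5 CPM in HCmel12 replicate 2, below the nearest library at 15.5 CPM. Plk2 was at 17.4 CPM in RET replicate 3, with the next at 13 CPM. Ppm1d was at 47.6 CPM in WT31 replicate 1, with the next at 45.4 CPM.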

How the results depend on the processing

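The count of members with HCmel12 below each other line, 13 in the reported test (all genes 6.85%), was between 11 and 15 in every alternative except one. That one required log2 differences of 1 or more in size, and the count was 8 (all genes 1.71%). With only the lines compared the count was 12 (5.19%), with library size alone 12 (5.83%) and with a replicate block 14 (7.09%). The same 13 genes were kept when any single library was left out. Apaf1 and Eda2r were added without WT31 replicate 5, and Eda2r without WT31 replicate 1 or HCmel12 replicate 5. Of the 13, Rps27l was lost with library size alone and Ddit4l with only the lines compared. Trp53cor1 was lost with the quasi-likelihood test of edgeR and with the DESeq2 Wald test. Both Ddit4l and Trp53cor1 were lost with a filter of at least 10 counts in every library. Members commonly regulated between HIM-melanoma and LM-melanoma numbered 10 with library size alone (all genes 13.3%), 8 with log2(TPM + 1) (12.3%), 8 with log2(TPM + 0.1) (12.7%), 8 with only the lines compared (11.3%) and 1 with the fold change limit (all genes 4.13%). Members with D4M above each other line numbered 7 with library size alone (all genes 15.8%), 7 with log2(TPM + 0.1) (15.1%) and 3 with the fold change limit (all genes 10.5%). The TPM settings also lack D4M replicate 1. The cause of these shifts was not tested.

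With the fold change limit of 1, WT31 differed from B16F10 luc2, RET, D4M and HCmel12 in 4, 6, 11 and 15 members (all genes 31.4%, 31.2%, 36.7% and 30%), B16F10 luc2 from RET, D4M and HCmel12 in 5, 10 and 15 (14.3%, 39.8% and 28.1%), RET from D4M and HCmel12 in 10 and 17 (39.2% and 26.6%), and D4M from HCmel12 in 16 (35.4%). HCmel12 was then lower than WT31 in 12 (15%), than B16F10 luc2 in 11 (12.2%) and than RET in 15 (12.4%), and any line was above each other line in 4 (22.5%) and below in 8 (14.9%). The limit itself removes smaller differences.

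Libraries of the same number did not deviate together (r from -0.23 to 0.21, with 0 of 10 pairs of lines over 0.1 for every number). With a replicate block, the members called were 22 instead of 21 between WT31 and B16F10 luc2 and 29 instead of 28 between WT31 and D4M. For these comparisons shares of all genes are given for the main test only. With the block, HCmel12 was below each other line in 14 (all genes 7.09%) instead of 13 (6.85%), and any line below each other line in 20 (all genes 47.1%) instead of 18 (45.5%). Of 5775 refits of 166 single-gene differences, 66 missed the threshold and 0 changed sign. Genes at a few counts, such as Fas, Perp, Trp73 and Ddit4l in HCmel12, are limited by depth.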
